A study of Mus musculus with 3 samples.

Results

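Cortical layer identity factors are the transcription factors and co-repressors whose expression tells the projection neurons of the upper layers from those of the deep layers. The 9 genes described here were chosen by symbol: 4 factors of the upper layers (Cux1, Cux2, Pou3f2 and Rorb) and 5 of the deep layers (Tbr1, Bcl11b, Fezf2, Foxp2 and Tle4), out of 27354 genes in the deposited table, 18109 of them protein-coding with a coding row. The samples were 3 poly-A RNA libraries of a single group: wild-type cortical neurons from embryonic day 16 Swiss-Webster mice, dissociated, plated on poly-D-lysine and maintained in Neurobasal medium with B27, with no treatment given in the labels. The mice are an outbred stock, and the labels do not give the time in culture. There was no other group, so every comparison was between genes within the same libraries. Whether each library had its own culture is not stated, and an SD or p below covers the spread over these 3 libraries, possibly a technical one. Taking the row with the most reads for each gene, reads summed to 16.6, 14.5 and 14.5 M in libraries 1, 2 and 3. Reads where genes overlap may count more than once in these sums.

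As background, cortical projection neurons are born in an inside-out order, the deep layers before the upper ones. Fezf2 specifies subcerebral neurons and acts through Bcl11b (Ctip2), Tbr1 specifies corticothalamic neurons and represses Fezf2, and Foxp2 and the Groucho-family co-repressor Tle4 mark corticothalamic neurons. Cux1 and Cux2, paralogs with cut repeats and a homeodomain, mark the upper layers and shape dendrites and synapses there. Pou3f2 (Brn2) is a POU-domain factor of upper-layer neurons and of the progenitors that make them, and the nuclear receptor Rorb marks the granular layer that receives thalamic input. Several of these genes are also used elsewhere: Bcl11b and Foxp2 in striatal neurons, Bcl11b and the Cux genes in interneurons, and Cux1, Cux2, Pou3f2 and Fezf2 in progenitors.

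A gene's value is the TPM (the share of all transcripts, scaled for length) of its longest protein-coding transcript row. All 9 genes were found, in 58 transcript rows. By this value the libraries held both sets of factors at low to moderate levels, with 3 deep-layer genes on top. In bulk RNA, fewer cells of a layer and less RNA per cell cannot be told apart. At a mean of at least 1 TPM, 8 of 9 members were detected, the exception being Foxp2; the share among all protein-coding genes was 61.5%. Foxp2 passed this limit with summed rows (4.98 TPM), and when values were rescaled to nuclear protein-coding genes (2.07 TPM), where 71.5% of protein-coding genes passed it. At 3 TPM or more stood 7 of 9 members, 3 upper-layer and 4 deep-layer, against 49.1% of protein-coding genes. At 5 TPM or more stood 3 of 9 members, all deep-layer, where the share among all protein-coding genes was 40.4%. None of the 9 reached 10 TPM, a level that 26.4% of protein-coding genes reached; on the rescaled values 8 of 9 members and 53.9% of protein-coding genes did. The median of log2(TPM + 1) over the 9 members was 2.45 ± 0.17 (SD, n = 3 libraries) and over all protein-coding genes 1.93 ± 0.0044.

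Cux1 needs its transcripts described before its level can be read. The gene makes a homeodomain protein and, by splicing from shared early exons to a separate set of last exons, CASP. CASP is a Golgi membrane protein without cut repeats or homeodomain. In the annotation, a homeodomain transcript of 24 exons (4882 bases) and a CASP transcript of 23 exons (2821 bases) share 13 exons. Their first exons differ, and they part after exon 14. The sequences below are shown because this junction separates the transcription factor from CASP; they are GENCODE M21 coding bases (mm10, chromosome 5, minus strand), with the 30 shared bases of exon 14 (chr5:136314307-136314336) in lower case and the 45 bases that follow in exon 15 in capitals, at chr5:136313270-136313314 in the homeodomain transcript and chr5:136257996-136258040 in the CASP transcript.
Cux1 homeodomain: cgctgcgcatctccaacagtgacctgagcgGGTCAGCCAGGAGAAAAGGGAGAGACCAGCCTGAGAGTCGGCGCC
Cux1 CASP: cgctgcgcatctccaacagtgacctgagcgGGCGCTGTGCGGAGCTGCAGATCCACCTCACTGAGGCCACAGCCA

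The deposited rows of CASP type were far higher than those of homeodomain type. The homeodomain type means coding rows that reach the last exon of the longest coding transcript. The 5 CASP-type rows averaged between 15.4 and 23.04 TPM and the 5 homeodomain-type coding rows between 3.59 and 7.99 TPM. The CASP row of 2821 bases stood at 18.1, 20.6 and 20.5 TPM in libraries 1, 2 and 3. The longest coding row, of homeodomain type (12862 bases, chromosome 5, 136266415 to 136567445, minus strand) and so the gene's value, stood at 3.18, 3.84 and 3.76 TPM, a mean of 3.59 ± 0.36 TPM. The ranges of these types did not overlap. A further coding row, of 805 bases, averaged 22.04 ± 2.08 TPM, within the CASP-type range. It ends at position 136313234, on the homeodomain side of the junction, but stops before the last exon and was counted as neither type. Of its bases 652 are shared with the CASP row of 2821 bases. Because reads on the shared exons count for both types, the homeodomain-type rows hold reads that may come from CASP mRNA.

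A row of 1885 bases in 5 exons, annotated as a processed transcript without coding sequence, comes nearest to a measure of the homeodomain side alone. Of its bases 1731 lie in the homeodomain transcript of 4882 bases, none of them in the part shared with CASP. It holds the whole homeobox, which that transcript carries in exons 23 and 24. This homeobox-end row stood at 0.40, 0.38 and 0.55 TPM, from 39, 31 and 47 reads, a mean of 0.44 ± 0.090 TPM (n = 3) and below the limit of 1 TPM in each library.

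The 1629 bases found in the CASP transcript but not in the homeodomain transcript of 4882 bases carried at least 10.5, 11.0 and 9.25 TPM. This bound follows from the 880, 774 and 688 reads by which the CASP row exceeded the homeodomain row although it is the shorter. The longest row exceeded the homeodomain row of 4882 bases by a net 354, 390 and 259 reads, although it has 8339 bases that the other lacks. The 1629 bases were read more than the homeobox-end row in each library. They include the start of the CASP transcript, at position 136567248. The longest coding row, of homeodomain type, starts nearby at position 136567445, so part of these reads may come from homeodomain mRNA.

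**Figure D1:**
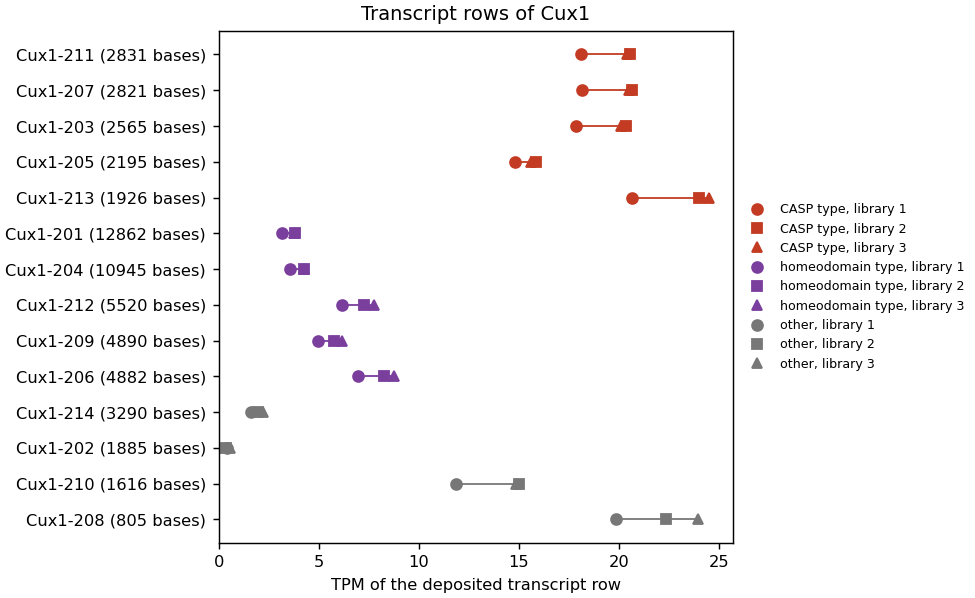
TPM (horizontal axis) of the 14 deposited transcript rows of Cux1, each with its exonic length, in 3 libraries (circle, square and triangle), with rows of neither type in grey. CASP-type rows lie between 14.8 and 24.5 TPM and homeodomain-type rows between 3.18 and 8.74 TPM. Among the grey rows are the homeobox-end row, between 0.38 and 0.55 TPM, and a coding row of 805 bases, between 19.8 and 24.0 TPM.

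The paralog Cux2 was measured by its longest coding row (chromosome 5, 121858387 to 122049851, minus strand, 23 exons), which stood at 4.80, 4.88 and 3.79 TPM in libraries 1, 2 and 3, a mean of 4.49 ± 0.61 TPM. Library 3 was the lowest. To show how far the paralogs can be told apart, the 57 bases that encode the recognition helix and the residues next to it are printed with the 9 differing bases in capitals (mm10, minus strand). They join exon 23 to 24 of Cux1 and exon 22 to 23 of Cux2: chr5:136279430-136279467 to chr5:136275448-136275466 in Cux1 and chr5:121864647-121864684 to chr5:121861363-121861381 in Cux2.
Cux1: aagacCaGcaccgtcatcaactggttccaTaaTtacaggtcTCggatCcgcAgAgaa
Cux2: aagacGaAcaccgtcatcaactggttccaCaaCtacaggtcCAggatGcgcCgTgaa

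Over the 180 bases of the homeobox the paralogs were identical at 130, or 72.2%. Every 50-base word of the Cux2 row was unique to that gene among annotated transcripts, and 97.3% of those of the longest Cux1 row were. The rest were shared with Gm16599, an antisense gene within Cux1 whose own level was 0.0062 ± 0.011 TPM. Cux1 minus Cux2 was -0.47, -0.28 and -0.0083 in libraries 1, 2 and 3 on the log2(TPM + 1) scale, a mean of -0.25 ± 0.23. It was below 0 in 3 of 3 libraries, though by almost nothing in library 3. With Cux1 valued by the homeobox-end row it was -1.92, and with the row of longest coding sequence it turned to 0.71.

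Pou3f2 is a single-exon gene (chromosome 4, 22482780 to 22488366, minus strand) with a single row. It stood at 3.67, 4.82 and 4.25 TPM, a mean of 4.25 ± 0.57 TPM, from 1051, 1163 and 1085 reads. Library 2 was the highest. Rorb (chromosome 19, 18930605 to 19111196, minus strand) stood at 2.12, 2.85 and 1.75 TPM, a mean of 2.24 ± 0.56 TPM. Library 2 was again the highest, 1.63 times library 3. Its coding rows of 9293 and 8759 bases share 8648 bases. The longer had 51, 65 and 52 reads more, so the 645 bases found only in it held at least that many reads. Rorb minus Pou3f2 was -0.71 ± 0.20 on the log2(TPM + 1) scale, below 0 in 3 of 3 libraries; in the upper layers these factors are known to restrain each other.

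Among the deep-layer genes Tbr1 (chromosome 2, 61804453 to 61814114, plus strand) stood at 7.79, 7.65 and 6.17 TPM, a mean of 7.20 ± 0.90 TPM. Fezf2 (chromosome 14, 12341892 to 12345865, minus strand) stood at 8.0, 5.90 and 6.80 TPM, a mean of 6.90 ± 1.05 TPM. Tle4 (chromosome 19, 14448072 to 14597983, minus strand) stood at 8.49, 6.98 and 5.85 TPM, a mean of 7.11 ± 1.32 TPM. These 3 genes were close together and overlapped in their ranges, and library 1 was the highest for each. In every library each of the 3 was above each of the 4 upper-layer genes, by the longest rows. With its row of longest coding sequence, at 6.97, 8.26 and 8.74 TPM, Cux1 was below all 3 of these genes in library 1 and above them in libraries 2 and 3, and with its highest row it was above them in every library.

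Bcl11b (chromosome 12, 107910403 to 108003602, minus strand) stood at 4.80, 4.87 and 3.28 TPM, a mean of 4.32 ± 0.90 TPM, and library 3 was the lowest. The low value lay mostly in the outer part of this row of 8111 bases, though an inner exon described below was also lowest in library 3. The 5223 bases that a shorter coding row of 2888 bases lacks, most of them beyond its 3′ end, stood at 5.30, 5.36 and 3.05 TPM. The shorter row itself stood at 3.90, 3.99 and 3.71 TPM, so there library 3 was close to the others.

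The same measure was taken over other genes after this was seen. For 668 genes with such a pair of coding rows, the log2 ratio of the added 3′ bases to the shorter row had a median of -0.14, -0.079 and -0.27 in libraries 1, 2 and 3, and library 3 was the lowest of the 3 in 57.8% of the genes. This was the widest of 4 definitions of a pair, each loosened after the one before had left few genes. The narrower ones left 1, 3 and 16 genes, and in the last of these the medians were -0.55, -0.48 and -0.71. Tbr1 also has a shorter coding row, of 1406 bases and lacking bases at both ends, which stood at 4.33, 4.46 and 4.08 TPM. The part of 3′ coverage in the low values of library 3 was not tested.

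Bcl11b has an exon of 366 bases that its row of 2522 bases skips. The bases of this exon stood at 4.48, 3.92 and 2.63 TPM and the row without it at 3.81, 4.0 and 3.87 TPM. The exon, from 84, 62 and 44 reads, was thus also lowest in library 3.

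Foxp2 (chromosome 6, 14901349 to 15441977, plus strand) was the lowest member. Its longest coding row stood at 0.52, 0.47 and 0.32 TPM, a mean of 0.44 ± 0.10 TPM, from 179, 137 and 99 reads on 6760 bases. All of its 18 rows averaged between 0.046 and 0.47 TPM, so no single row reached 1 TPM. Foxp2 minus Tle4, its partner as a corticothalamic marker, was -2.49 ± 0.14 on the log2(TPM + 1) scale, below 0 in 3 of 3 libraries.

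**Figure D2:**
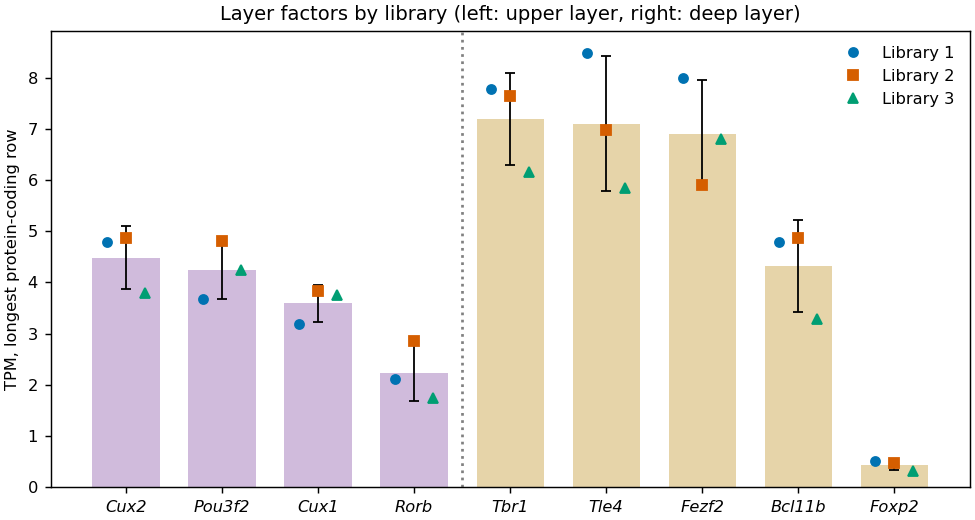
TPM (vertical axis) of the longest protein-coding row of each member; bars are means of 3 libraries, error bars SD, and symbols the libraries, with upper-layer genes left and deep-layer genes right of the dotted line. Tbr1, Tle4 and Fezf2 average between 6.90 and 7.20 TPM, and Foxp2 stands at 0.44 TPM.

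In order of mean level the members ran Tbr1, Tle4, Fezf2, Cux2, Bcl11b, Pou3f2, Cux1, Rorb and Foxp2. Neighbours were called apart where their log2 difference exceeded its SD over libraries and had the same sign in all 3. Of the 8 neighbouring pairs 4 met this. Fezf2 was above Cux2 by 0.52 ± 0.26, Pou3f2 above Cux1 by 0.19 ± 0.067, Cux1 above Rorb by 0.52 ± 0.25, and Rorb above Foxp2 by 1.16 ± 0.20. The place of Cux1 depends on its row: with the longest coding sequence (7.99 TPM) it was above Pou3f2, and with the homeobox-end row (0.44 TPM) below Rorb. Tbr1, Tle4 and Fezf2 were not separated from each other, nor were Cux2, Bcl11b and Pou3f2.

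The upper- and deep-layer genes were then set side by side within each library. The median of log2(TPM + 1) was 2.14, 2.41 and 2.25 over the upper-layer genes in libraries 1, 2 and 3, against 3.14, 2.79 and 2.78 over the deep-layer genes. Upper minus deep was -0.99, -0.38 and -0.52, a mean of -0.63 ± 0.32, below 0 in 3 of 3 libraries. Summed TPM was 13.8, 16.4 and 13.5 over the upper-layer genes and 29.6, 25.9 and 22.4 over the deep-layer genes. Of the 20 possible pairs of an upper- and a deep-layer gene, the upper-layer gene was the higher in 4, 5 and 7. With Cux1 valued by its homeobox-end row the mean difference of medians was -0.89, and with Foxp2 left out -0.68. With the highest row of each gene it was -0.34 ± 0.23, with group means -0.21, and with summed rows, which count shared reads repeatedly, it turned to 0.46.

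**Figure D3:**
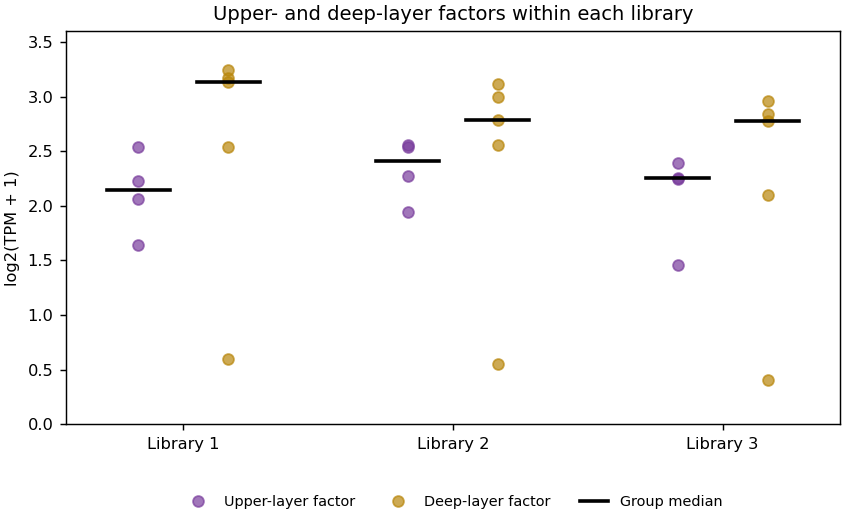
log2(TPM + 1) (vertical axis) of the 4 upper-layer genes (left column) and 5 deep-layer genes (right column) in each of 3 libraries, with black lines for the group medians. Upper minus deep median is -0.99, -0.38 and -0.52, while the lowest point in each library is the deep-layer gene Foxp2.

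Of 6 pairs of factors compared within libraries, the remaining pairs were deep-layer genes. Tbr1 minus Bcl11b was 0.63 ± 0.097 and Fezf2 minus Bcl11b 0.58 ± 0.32, each time above 0 in all 3 libraries. Tbr1 minus Fezf2, factors that oppose each other in the embryo, was 0.056 ± 0.24 and above 0 in 1 of 3 libraries. An exact permutation of the signs over libraries (two-sided) gave p = 0.25 for all pairs but Tbr1 and Fezf2, which gave p = 1. The value 0.25 is the smallest that this permutation can give with 3 libraries, so no pair could pass 0.05 by it, and adjusted over the 6 pairs (Benjamini-Hochberg) it became 0.3.

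By the longest rows all 4 upper-layer genes were highest in library 2, while 4 of 5 deep-layer genes were highest in library 1, the exception being Bcl11b. With the highest row of each gene library 2 was on top for 2 of 4 upper-layer genes, Pou3f2 and Rorb, with Cux1 highest in library 3 and Cux2 in library 1; the deep-layer count was again 4 of 5. On the longest rows the margins were narrow for Cux1 (3.84 TPM in library 2, 3.76 TPM in library 3), Cux2 (4.88 TPM in library 2, 4.80 TPM in library 1) and Tbr1 (7.79 TPM in library 1, 7.65 TPM in library 2), and no test was made of this pattern. Library 3 was the lowest for 4 of 5 deep-layer genes and for Cux2 and Rorb. The coefficient of variation ran from 9.97% for Cux1 to 25.1% for Rorb, above the median of 8.57% over 6362 protein-coding genes between 1 and 10 TPM for each of the 9 members, Foxp2 itself lying below that range of levels. Marker lists varied between the same libraries. Summed over 9 interneuron genes, TPM was 294, 307 and 204 in libraries 1, 2 and 3, over 5 excitatory neuron genes 321, 317 and 313, and over 6 pan-neuronal genes 1898, 1932 and 1715. Summed over 5 oligodendrocyte lineage genes it was 62.9, 47.5 and 79.2. Their part in the members' pattern was not tested.

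**Figure D4:**
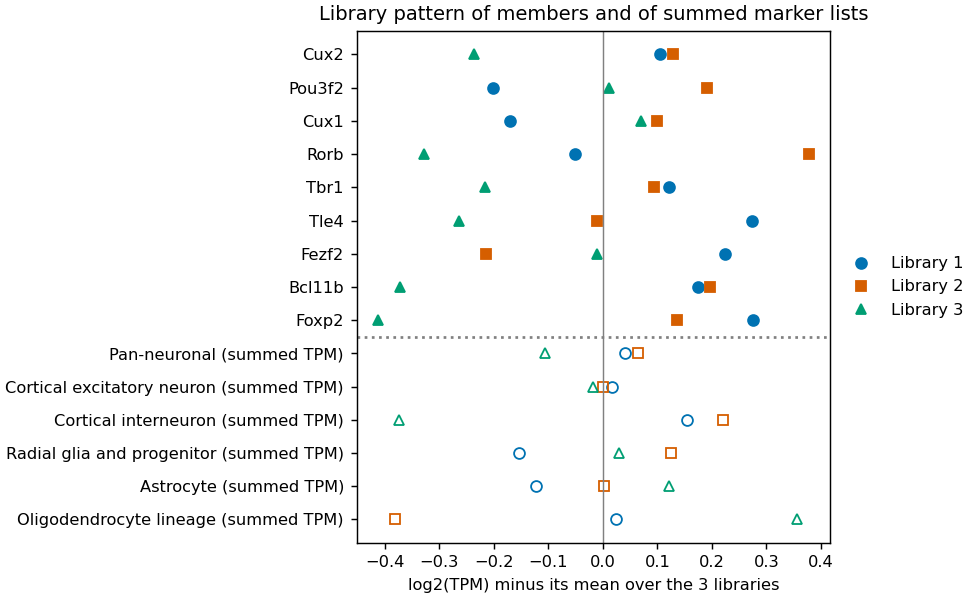
log2(TPM) minus its mean over the 3 libraries (horizontal axis) for the longest rows of the 9 members (filled symbols) and for the summed TPM of 6 marker lists (open symbols). On these rows the 4 upper-layer genes are highest in library 2 (squares), which holds for 2 of 4 with each gene's highest row, and 4 of 5 deep-layer genes in library 1 (circles). The interneuron sum is lowest in library 3 (triangles).

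Markers of the labelled cells were present: all 6 pan-neuronal and all 5 excitatory neuron genes were detected, with Slc17a7, the main vesicular glutamate transporter of cortex, at 89.98 ± 4.47 TPM. Markers of other cells, some of which are known to use the members' genes, were also read. All 9 interneuron genes were detected, as were 7 of 8 radial glia and progenitor genes, although Eomes, of intermediate progenitors, stood at 0.013 ± 0.017 TPM. All 5 astrocyte genes and 4 of 5 oligodendrocyte lineage genes were detected. Of 8 striatal projection neuron genes measured 4 were detected. They were Tac1 at 4.45 ± 0.71, Penk at 1.72 ± 0.19, Ppp1r1b at 1.58 ± 0.11 and the dopamine receptor gene Drd1 at 1.0 ± 0.22 TPM. Drd1 lay at the limit, with 1.23, 0.97 and 0.80 TPM in libraries 1, 2 and 3. Among the others the dopamine receptor gene Drd2 stood at 0.91 ± 0.11 TPM and Adora2a at 0.080 ± 0.036 TPM. With the highest row of each gene 5 striatal genes were detected, as Rgs9 moved from 0.41 to 1.61 TPM. None of the 5 thalamic genes and none of the 4 endothelial genes was detected, and 1 of 5 microglial genes was. The thalamic gene Tcf7l2, at 0.82 ± 0.12 TPM, passed the limit by its highest row (1.18 TPM). All these marker calls are on the deposited scale. Rescaling as for the members multiplies values by 4.70 to 4.87, and the marker calls were not repeated on it. Of the 5 Cajal-Retzius genes 2 were detected, Reln at 8.82 ± 2.35 TPM and Ndnf at 1.62 ± 0.29 TPM, while the defining Trp73 stood at 0.048 ± 0.034 TPM. How much of each member's RNA came from which cells was not tested.

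Other layer genes were listed for context with earlier results of these data known. All 9 other upper-layer or callosal genes were detected, with 5 at a mean of 10 TPM or above, and their median of log2(TPM + 1) was 3.66 ± 0.043. The highest of the list was Mef2c, an activity-regulated factor, at 121 ± 22.97 TPM, and the lowest Rora, a relative of Rorb, at 1.80 ± 0.21 TPM. Of 12 other deep-layer genes 11 were detected, 3 at 10 TPM or more, with a median of 2.62 ± 0.095. The highest was the LIM-domain gene Lmo4 at 103 ± 10.7 TPM and the lowest Nxph4, of the subplate-derived layer, at 0.17 ± 0.056 TPM. Sox5, which regulates the order in which deep-layer neurons are made, stood at 3.05 ± 0.34 TPM and the corticothalamic receptor gene Ntsr1 at 8.60 ± 0.22 TPM. Between these lists the upper-layer median was the higher, the reverse of the order among the members. No test was made of it, nor of how particular the listed genes are to their layers.

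Of the cortical excitatory lineage factors 9 of 11 were detected, 2 at 10 TPM or more. Neurod6 was the highest at 81.8 ± 5.87 TPM and Zbtb18 stood at 68.6 ± 5.76 TPM, both of them factors of postmitotic excitatory neurons. Emx1, of the dorsal telencephalon, stood at 8.59 ± 0.24 TPM, and Neurog2, of dividing progenitors, at 0.66 ± 0.11 TPM.

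**Figure D5:**
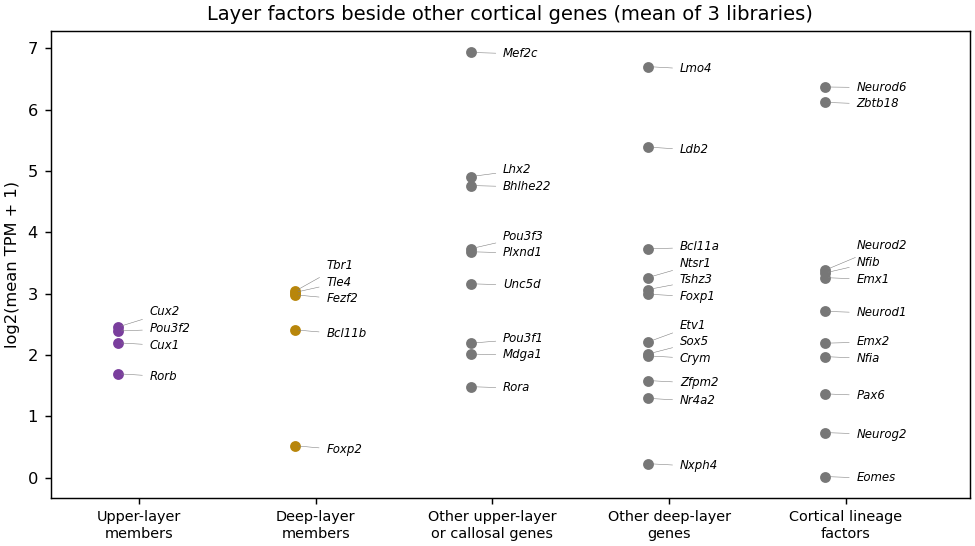
log2(mean TPM + 1) over 3 libraries (vertical axis) of the 4 upper-layer and 5 deep-layer members and of 3 lists of other cortical genes, each point a gene. The members' means run from 0.44 TPM for Foxp2 to 7.20 TPM for Tbr1, and Mef2c, Lmo4 and Neurod6 lead the other lists.

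Paralogs were often above the member itself. Foxp1 exceeded Foxp2 by 2.46 ± 0.20, Bcl11a exceeded Bcl11b by 1.33 ± 0.28 and Pou3f3 exceeded Pou3f2 by 1.35 ± 0.088 on the log2(TPM + 1) scale, each in 3 of 3 libraries, and in the same direction with the highest row or summed rows. Pou3f1 minus Pou3f2 was -0.20 ± 0.17, below 0 in 3 of 3 libraries. Fezf1 was listed at 0 in all libraries, beside Fezf2 at 6.90 TPM. Rora minus Rorb was -0.20 ± 0.19 and above 0 in 1 of 3 libraries. Of the Groucho family Tle3 stood at 8.46 ± 0.72, Tle1 at 5.00 ± 0.62 and Tle2 at 3.84 ± 0.27 TPM, and Aes, a short member that lacks the WD repeats, at 96.8 ± 1.66 TPM. Tle1 minus Tle4 was -0.43 ± 0.38, but turned to 0.29 with the highest rows, so the order of these genes depends on the row.

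The members share long transcripts. They were chosen by symbol and not by length, but the row that stands for a gene is its longest coding one. This holds for the members and for all protein-coding genes alike. Their longest coding rows had a median of 6760 exonic bases, against 2775 over all protein-coding genes, and 8 of 9 were above that median, the exception being Fezf2 at 2304 bases. All 9 had more coding bases than the median gene, with a median of 2142 against 1296. The genomic span ran from 3.97 kb for Fezf2 to 541 kb for Foxp2, with a median of 150 kb against 19.8 kb and 6 of 9 above it. GC content was no such feature: 3 of 9 were above the median gene's 50.1%, and the members ran from 41.6% for Rorb to 56.7% for Fezf2.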

How the data were processed

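RNA of 3 libraries of 1 group was sequenced. The deposited values are TPM per transcript row and library, made by the authors on GENCODE M4 models, per the name of the deposited table. The submitters' processing notes name Trimmomatic, TopHat, HTSeq and Bowtie, and mm10 as the build; their roles and versions, and the strand setting, were not given in the sources used here. Of 84660 rows, 82970 were matched by identifier and place to GENCODE M21 (Python 3.11.15, numpy 2.4.6, pandas 2.3.3), which also gave the sequences and the 50-base words. The gene value was the row of the longest protein-coding transcript, and the log scale was log2(TPM + 1). Alternatives were the highest row, the sum, the longest coding sequence, a pseudocount of 0.1, other detection limits, rescaling and leaving out each library.

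Rows whose model was the same in M21 were checked, except those at 0 or with the highest read counts. That left 33604, 33345 and 33395 rows in libraries 1, 2 and 3. In 100% of them TPM multiplied by exonic length came out as whole multiples of a single number per library, within 0.01. This gave reads per row, and 1 TPM on 2 kb stood for 103, 86.5 and 91.4 reads. On simulated data 100% of 42156 rows were recovered in each library. Those data were built from whole reads on the same lengths, so this checks the calculation only and not how the deposited values were made. A read on an exon shared by rows counts in each of them. Pairs were tested by exact sign permutation over libraries.

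The members and lists were chosen with earlier results of these data known. By rule all members were named, and from each context list at most 5 genes, the highest and lowest included. Some genes of the context and marker lists are not reported here, and the lists' counts, medians and sums were taken without them. Further transcript rows, paralogs and marker genes were named after their values were seen. The homeobox-end row as a value of Cux1, leaving out Cux1 or Foxp2, and the comparison of 3′ ends were added after the data were seen. That comparison took coding rows nested in a longer coding row that added at least 500 bases, nearly all beyond the 3′ end, with at least 100 reads in each part. Isl1, of the striatal list, was not analysed here.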

Additional observations from a re-analysis of the deposited data

How the results depend on the processing

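Leaving out each library in turn, the difference of medians, upper minus deep, stayed between -0.76 and -0.45, 8 members were detected and 0 stood at 10 TPM or more. Cux1 minus Cux2 stayed between -0.38 and -0.14, Tbr1 minus Bcl11b between 0.58 and 0.67, Fezf2 minus Bcl11b between 0.43 and 0.75, Foxp2 minus Tle4 between -2.54 and -2.41 and Rorb minus Pou3f2 between -0.77 and -0.59. Tbr1 minus Fezf2 ran from -0.078, without library 2, to 0.15. With the highest row upper minus deep was -0.34, Cux1 minus Cux2 turned to 1.85 and 1 member, Cux1, stood at 10 TPM or more. With summed rows upper minus deep turned to 0.46, Cux1 minus Cux2 to 2.07, Fezf2 minus Bcl11b to -0.73 and Rorb minus Pou3f2 to 0.65, Tbr1 minus Fezf2 was 1.30, 9 members were detected and 5 stood at 10 TPM or more. With the longest coding sequence Cux1 minus Cux2 turned to 0.71. The highest row of Cux1 is of CASP type, and a sum counts shared reads again for each of 1 to 18 rows. Rescaled to nuclear protein-coding genes, which raised levels by 2.23 to 2.28 log2 units, 9 members were detected and 8 stood at 10 TPM or more; a single factor per library cannot change the order of genes within it. Foxp2 minus Tle4 was -3.75 with a pseudocount of 0.1, -3.50 rescaled and -1.34 summed. With group means upper minus deep was -0.21, and at a limit of 5 TPM 3 members were detected. With Cux1 valued by its homeobox-end row 7 members were detected. No paired analysis was possible because the series has no other group with which to pair libraries; the pairs of genes were compared within libraries, by a sign permutation that cannot go below p = 0.25 with 3 of them.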
